A study of Rattus with 4 samples.

Results

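Ahnak, Ahnak2, Plec, Macf1 and Dst encode giant proteins that link parts of the cytoskeleton to each other and to membranes. Peaks in these genes were selected by gene name from the peak lists of both RBM25 immunoprecipitates (IP). The selection gave 76 of 2696 peaks in IP replicate 1 and 157 of 8108 peaks in IP replicate 2, 233 peaks in all. The genes were chosen with their peaks in view. Every value below therefore describes these peaks, with no test of a difference between genes.

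The series holds 4 samples of H9C2, a rat line of myoblasts that was established from the heart of an embryo: 2 RBM25 IP samples and 2 inputs. The cells were cross-linked with ultraviolet light (400 mJ/cm2), a DNase and micrococcal nuclease were used on the lysate, and the RNA was sequenced from stranded libraries as 150-nt read pairs. The IP and input samples carry the same cell line label, and their labels name no further treatment. The inputs were not analysed here. No label says that the IP samples came from separate cultures, so the differences between them may be technical.

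RBM25 is an RNA-binding splicing regulator that associates with the U1 snRNP, the particle that recognises 5' splice sites. Plectin (Plec), MACF1 and dystonin (Dst) belong to the plakin family. Plectin ties intermediate filaments to actin and to adhesion sites. MACF1 and dystonin are spectraplakins, which join actin to microtubules and, in some dystonin isoforms, to intermediate filaments. AHNAK is a scaffold built mostly of repeated units, with partners that include annexin A2 and S100A10 at the plasma membrane, and AHNAK2 is its close relative. Most of AHNAK is encoded by a single very long exon, whereas MACF1 and dystonin are spread over many exons. Plec combines many short exons with very long ones near its 3' end.

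The height of a peak is given as tags per 50-nt bin, the authors' unscaled value, and no peak was called below 19 tags in replicate 1 or below 20 in replicate 2. A peak is called sense when it lies on the strand of its gene and antisense when it lies on the other strand. A boundary peak is a sense peak that holds both coding and intron sequence in the deposited annotation, and a wholly coding peak holds coding sequence alone. A peak is shared, or recurs, when it overlaps a peak of the other list on the same strand. Percentages carry 95% Wilson intervals, which cover counting error only, and peaks of a gene are not independent. All coordinates are on mRatBN7.2 and are written as in the lists.

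These genes were among the most peak-rich of the 1914 genes with a peak in either list. Macf1 ranked 1 with 68 peaks over both lists, Ahnak 3 with 55, Plec 5 with 48 and Dst 8 with 44. Ahnak2, with 18 peaks, ranked 100. Together they took 2.93% (2.35 to 3.66) of the genic peaks of replicate 1 and 1.99% (1.71 to 2.32) of those of replicate 2. The longer list of replicate 2 held 2.07 times as many of their peaks as that of replicate 1, and 3.04 times as many genic peaks in all. Among the 5, this ratio was highest in Macf1, with 19 and 49 peaks (2.58), and lowest in Ahnak2, with 8 and 10 (1.25). Library depth is unknown, and a deeper library can give a longer list.

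**Figure D1:**
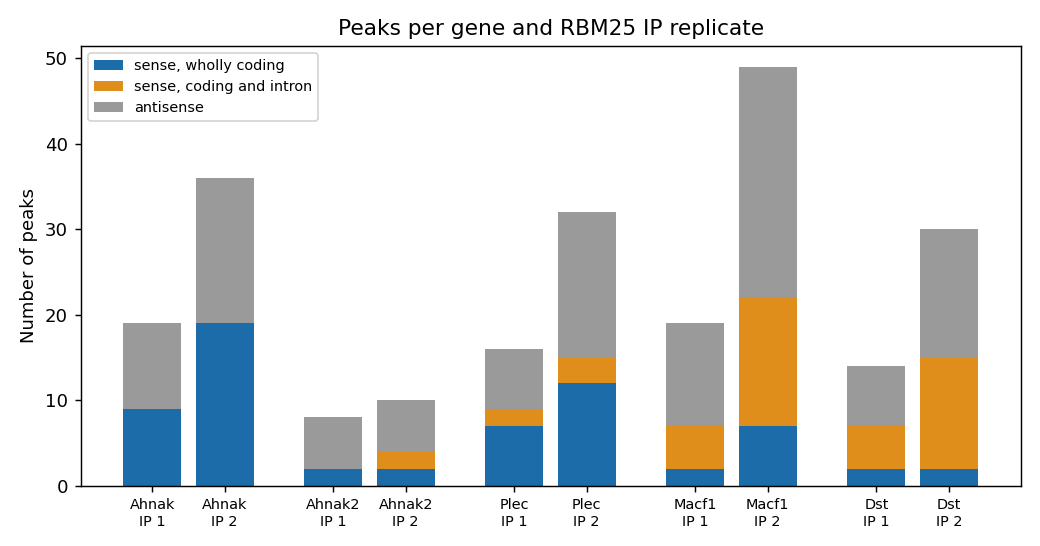
Number of peaks in each gene in IP replicates 1 and 2, stacked by class (sense and wholly coding, sense with coding and intron sequence, antisense). Ahnak has 9 and 19 sense peaks, none with intron sequence, while Macf1 and Dst are mostly boundary peaks among their sense peaks.

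Sense peaks of Ahnak lay in coding sequence alone. None of the 28 sense peaks over both lists contained intron sequence: 0 of 9 in replicate 1 (upper limit 29.9%) and 0 of 19 in replicate 2 (upper limit 16.8%). Across all genic sense peaks, 63.9% were boundary peaks in replicate 1 and 68.1% in replicate 2, and 16.8% and 17% were wholly coding. The absence of boundary peaks in Ahnak was part of what the gene was chosen for, so these background shares are printed for scale alone.

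Sense (plus strand) and antisense Ahnak peaks together formed a dense row on chromosome 1, from 205895050 to 205910800, a stretch of 15.8 kb. They began at 35 distinct positions there, with a median step of 400 nt between neighbouring starts and no step longer than 1500 nt. The row was not filled alike by the lists: replicate 1 used 15 of those starting positions and replicate 2 used 27, and 7 were used by both.

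Macf1 and Dst showed the opposite composition. In Macf1, 5 of 7 sense peaks of replicate 1 were boundary peaks (71.4%, 35.9 to 91.8) and 15 of 22 in replicate 2 (68.2%, 47.3 to 83.6). In Dst the numbers were 5 of 7 (71.4%, 35.9 to 91.8) and 13 of 15 (86.7%, 62.1 to 96.3). Both genes thus lay near or above the background share in each list. Their sense peaks were also spread far more widely, over 133 kb in Macf1 (chromosome 5, 135640150 to 135773500, minus strand) and 144 kb in Dst (chromosome 9, 36384000 to 36528350, plus strand).

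Plec fell between them. Boundary peaks made up 2 of 9 sense peaks in replicate 1 (22.2%, 6.32 to 54.7) and 3 of 15 in replicate 2 (20%, 7.05 to 45.2). All of its boundary peaks lay upstream of the longest run of wholly coding sense peaks. Between 107891700 and 107900600 on chromosome 7, minus strand, 8.9 kb toward the 3' end of the gene, 17 consecutive sense peaks (6 in replicate 1, 11 in replicate 2) were wholly coding. The other 7 sense peaks all lay upstream of that stretch, and 5 of them were boundary peaks. The classes were mixed there, with wholly coding peaks at 107906750 and 107908800 between boundary peaks at 107904850 and 107909750. Over both lists, Ahnak and Plec held the highest numbers of wholly coding sense peaks of the 303 genes with at least 5 sense peaks, 28 and 19. Macf1, with 9 such peaks, stood at rank 4 level with Numa1, which encodes a mitotic spindle protein. These ranks count peaks, and Ahnak and Plec also ranked 3 and 4 by all sense peaks. As a share of sense peaks, wholly coding peaks were 79.2% in Plec. Some genes with fewer such peaks were above that share or close to it. It was 100% in Nes (10 of 10), 77.8% in Emilin1, 75% in LOC108351097 and 72.7% in Ankrd11. Genes with still fewer wholly coding peaks were not ranked by share. Genome sequence and gene models of this build were not used here, so no exon length was assigned to any of these stretches.

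Ahnak2, on chromosome 6, minus strand, had too few sense peaks for a share. In replicate 1 both of its sense peaks were wholly coding, and in replicate 2 there were 2 wholly coding and 2 boundary peaks, with coding fractions of 0.9 and 0.58.

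Within boundary peaks, the junction could fall anywhere in the bin. The coding fraction of the 43 boundary peaks of Plec, Macf1 and Dst ranged from 0.02 to 0.94 with a median of 0.5, against a median of 0.6 over all boundary peaks. Macf1 had 12 of 20 mostly in intron. In Dst 11 of 18 were mostly coding, 1 of 5 in replicate 1 and 10 of 13 in replicate 2. Over all genic boundary peaks of both lists, 2039 of 3415 were mostly coding and 1323 mostly in intron. Dst was thus near the background over both lists. A boundary bin with a coding fraction of 0.02, such as the Macf1 bin at 135655900 to 135655950, holds almost no coding sequence. When each class had to cover at least 0.1 of the peak, the boundary share of Plec, Macf1 and Dst over both lists was 44% in place of 57.3%. The share of all genic sense peaks under that rule was not computed.

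**Figure D2:**
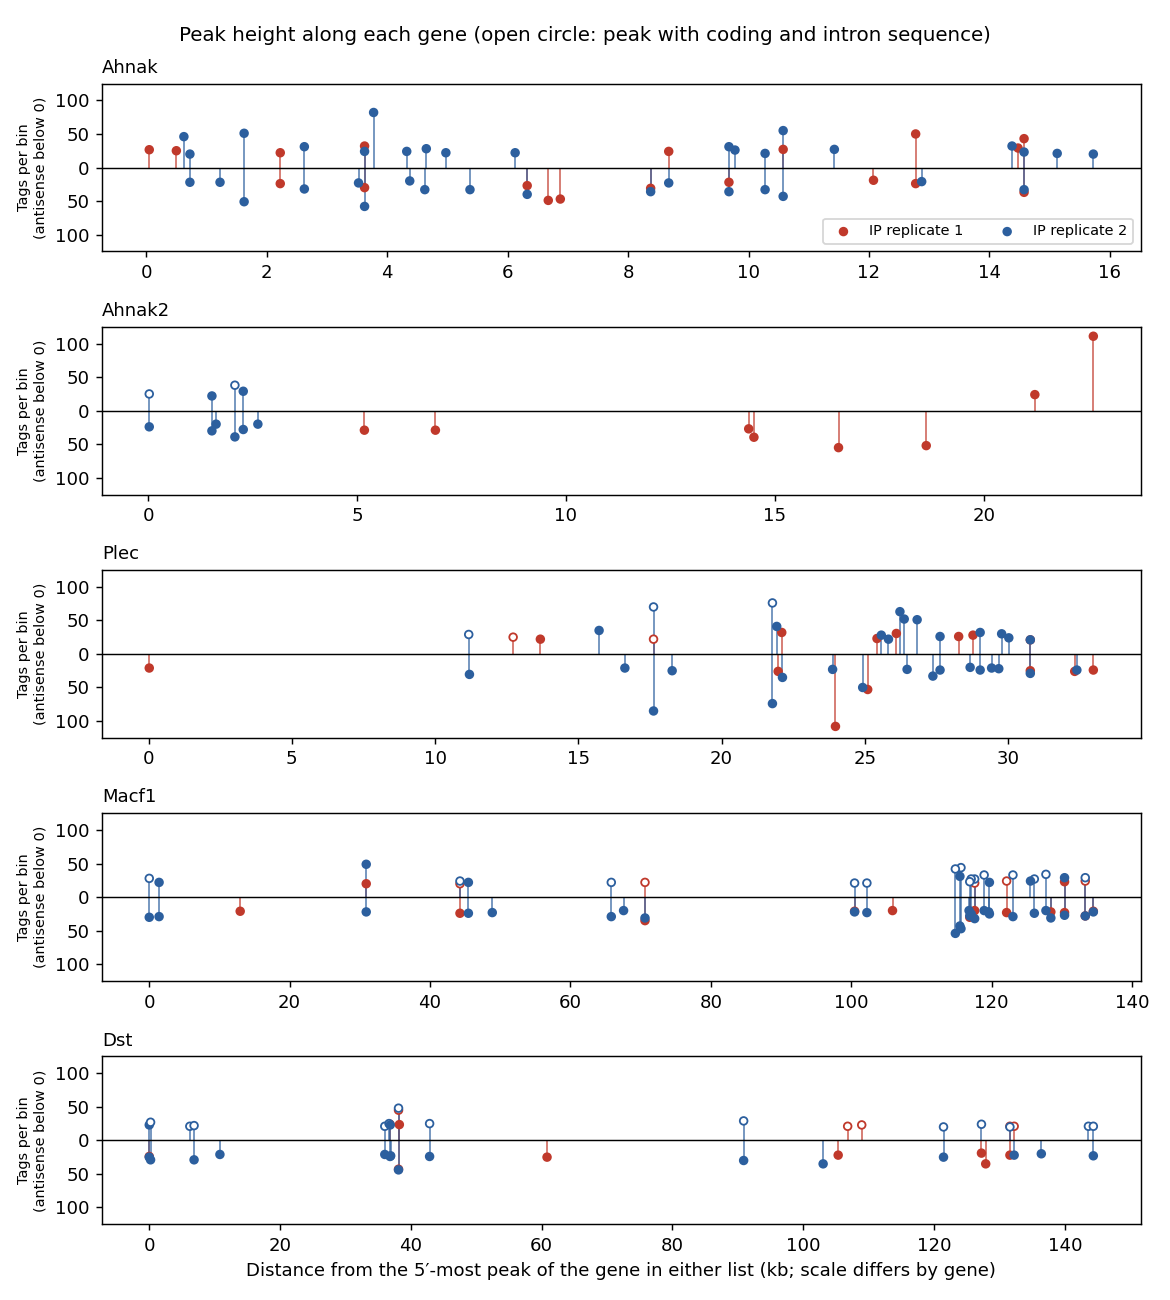
Height of every peak (tags per bin) against distance in kb from the 5'-most peak of its gene in either list, with sense peaks above 0 and antisense peaks below. Red is IP replicate 1, blue IP replicate 2, and open circles are boundary peaks. Ahnak has no open circle, those of Plec lie 5' of its wholly coding stretch, and the lists of Ahnak2 occupy separate stretches.

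Recurrence between the lists differed among the 5 genes. Over all genic peaks of replicate 1, 62.1% were shared with replicate 2. In Macf1 13 of 19 were (68.4%, 46 to 84.6), near that background. Ahnak had 8 of 19 (42.1%, 23.1 to 63.7), Dst 5 of 14 (35.7%, 16.3 to 61.2), Plec 3 of 16 (18.8%, 6.59 to 43) and Ahnak2 0 of 8 (0%, upper limit 32.4). Plec, Macf1 and Dst together shared 21 of 49 (42.9%, 30 to 56.7).

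The genes stood in the same order from the side of the longer list. That order is largely built in, since the same shared peaks are counted and only the number of peaks in the gene changes. Of replicate 2 peaks, 26.5% were shared in Macf1, 22.2% in Ahnak, 16.7% in Dst, 9.38% in Plec and 0 of 10 in Ahnak2 (upper limit 27.8%), where 20.4% of all genic peaks were. The Ahnak share was below the background in replicate 1 (42.1% against 62.1%) but not in replicate 2, and its interval held the background in each.

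Where a peak lay went along with how often it recurred. Over the whole series, 46.3% of the wholly coding sense peaks of replicate 1 were shared and 73.1% of boundary peaks. In these 5 genes, 7 of 22 wholly coding peaks were shared (31.8%, 16.4 to 52.7) and 6 of 12 boundary peaks (50%, 25.4 to 74.6). Those intervals overlap, so the members alone do not separate the classes. In Ahnak, 3 of 9 sense peaks of replicate 1 recurred (33.3%, 12.1 to 64.6), and 5 of 10 antisense peaks. These 9 sense peaks were all wholly coding, so the like background is the 46.3% above. Of all sense peaks of replicate 1, 64.6% were shared. With a replicate 2 peak on either strand counted, 9 of 19 Ahnak peaks, 15 of 19 of Macf1, 8 of 14 of Dst and 4 of 16 of Plec recurred, against 66.9% of genic peaks.

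Some peaks that did not recur had a neighbour close by. Of the 7 unshared replicate 1 sense peaks of Plec, 4 had a replicate 2 sense peak within 200 nt, as did 4 of its 6 unshared antisense peaks. In Ahnak this held for 2 of 6 sense and 1 of 5 antisense peaks. No unshared Macf1 peak had such a neighbour, its nearest being 850 nt away. Dense rows of peaks make near neighbours more likely, and this was not corrected for.

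**Figure D3:**
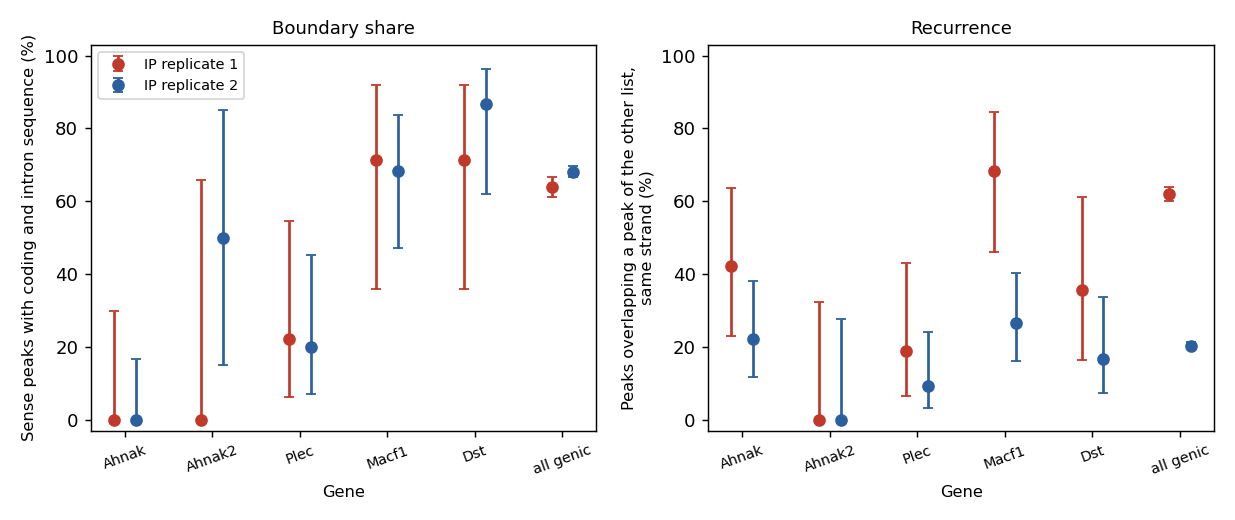
Left, share of sense peaks that hold both coding and intron sequence (%). Right, share of peaks that overlap a peak of the other list on the same strand (%). Points are each gene in IP replicates 1 and 2 and all genic peaks of each list; bars are 95% Wilson intervals. Ahnak lies at 0% on the left, and Macf1 at 68.4% and Plec at 18.8% of replicate 1 peaks on the right.

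Ahnak held 3 shared sense peaks, each in an identical bin in the lists. The bin at 205898650 to 205898700 had 32 tags in replicate 1 against 24 in replicate 2. At 205905600 to 205905650 the values were 27 and 55 tags. At 205909600 to 205909650 they were 43 and 23 tags. The higher list thus changed from bin to bin, with replicate 1 above in the first and last and replicate 2 above in the middle one.

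Of the 5 shared antisense Ahnak peaks, 4 had more tags in replicate 2, as did 1232 of all 1609 shared genic peaks. At 205898650 to 205898700 30 antisense tags in replicate 1 stood against 58 in replicate 2. At 205909600 to 205909650 there were 37 and 33.

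Of the tallest Ahnak peaks of each list and strand, the antisense one of replicate 2 recurred and the other 3 did not. The sense peak at 205907800 to 205907850 reached 50 tags in replicate 1, and replicate 2 called no sense peak there. Conversely, the sense peak at 205898800 to 205898850 had 82 tags in replicate 2 and no replicate 1 counterpart. Antisense, 49 tags at 205901700 to 205901750 in replicate 1 was also alone. With a bound of 40 tags, chosen after the values were seen, 1 of 4 such replicate 1 peaks of Ahnak was shared, against 58% of all genic peaks of that height. In replicate 2 it was 3 of 8, against 33%.

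The tallest Plec peaks of each list and strand did not recur. An antisense peak at 107898500 to 107898550 had 108 tags in replicate 1 and no match in replicate 2. In replicate 2 the tallest sense peak, at 107900700 to 107900750 with a coding fraction of 0.42, had 76 tags and an antisense partner of 74, and neither was called in replicate 1. The bin at 107904850 to 107904900 was shared on the sense strand with 22 and 70 tags, a 3.18-fold difference. This was the widest ratio among the 29 shared peaks of the 5 genes, and its antisense peak of 85 tags was called in replicate 2 alone. The remaining shared Plec peaks lay in a wholly coding bin, 107891700 to 107891750, with 21 tags in each list on the sense strand and 25 and 29 on the antisense strand.

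Ahnak2 gave the widest contrast between the lists. All 8 peaks of replicate 1 lay between 131836100 and 131853600, and all 10 of replicate 2 between 131856100 and 131858750, 2.5 kb further upstream in the gene. Its tallest peak, sense and wholly coding at 131836100 to 131836150, reached 111 tags in replicate 1, the highest of the 233 peaks. The tallest replicate 2 peaks, 38 tags sense and 39 antisense, shared the bin at 131856650 to 131856700. No replicate 1 peak of Ahnak2 had a partner on the opposite strand, whereas all 4 sense peaks of replicate 2 did.

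The shared peaks of Macf1 were low and recurred on both strands. Its 13 shared peaks had 20 to 35 tags in replicate 1, and replicate 2 was higher in 10, lower in 2 and equal in 1, near the overall 1232 of 1609 shared genic peaks with more tags in replicate 2. The tallest, antisense at 135702850 to 135702900, had 35 and 31 tags. A wholly coding sense peak at 135742550 to 135742600 had 20 tags in the first list and 49 in the second, the widest ratio in the gene (2.45). The tallest Macf1 peak of all, 54 tags antisense at 135658650 to 135658700, was in replicate 2 alone. A sense peak of 42 tags lay in the same bin and list.

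Dst had the most alike heights. Its strongest shared peak spanned a boundary at 36422100 to 36422150, with a coding fraction of 0.28. It had 45 tags in the first list and 48 in the second. The antisense peak in that bin had 43 and 44. The ratio of replicate 2 to replicate 1 over its 5 shared peaks ran from 0.952 to 1.07, against 0.535 to 2.04 over the 8 of Ahnak. Beyond that bin, no Dst peak exceeded 35 tags in either list.

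**Figure D4:**
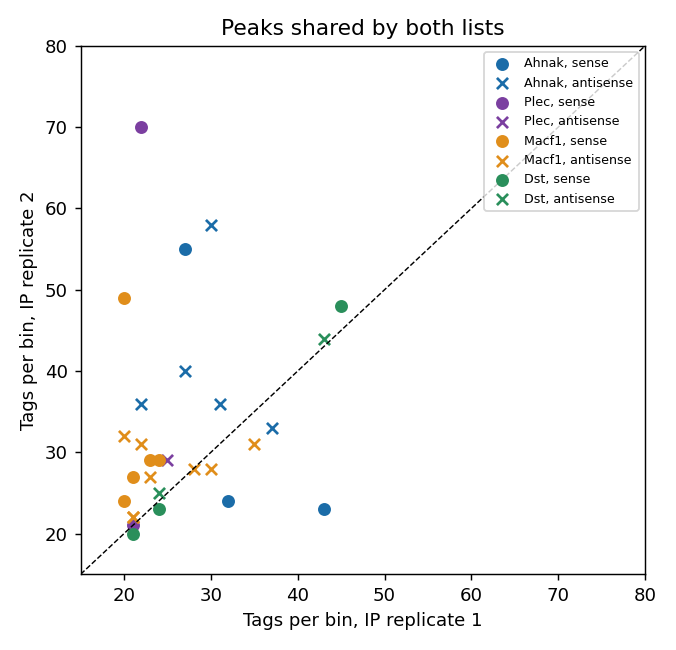
Tags per bin in IP replicate 1 (x) and IP replicate 2 (y) for the 29 peaks that both lists share, by gene (colour) and orientation (circle sense, cross antisense). The dashed line marks equal values. Dst points follow the line, and the Plec point at 22 and 70 tags lies farthest from it.

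The sense share of Ahnak lay near the background. Sense peaks were 9 of 19 in replicate 1 (47.4%, 27.3 to 68.3) and 19 of 36 in replicate 2 (52.8%, 37 to 68), where 46.3% and 49.3% of all genic peaks were sense. For Plec the shares were 56.2% and 46.9%, for Dst 50% in each list and for Macf1 36.8% and 44.9%. All of these intervals reached the background of their list. Whether another gene on the opposite strand overlaps these positions was not assessed.

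Sense and antisense peaks often stood in the same bin of a list. Over all genic sense peaks, 50.5% had such a partner in replicate 1 and 73.5% in replicate 2. Macf1 was above both values, with 6 of 7 (85.7%, 48.7 to 97.4) and 20 of 22 (90.9%, 72.2 to 97.5). Ahnak had 4 of 9 (44.4%, 18.9 to 73.3) and 9 of 19 (47.4%, 27.3 to 68.3), and Plec 1 of 9 (11.1%, 1.99 to 43.5) and 6 of 15 (40%, 19.8 to 64.3). The intervals of Plec in both lists and of Ahnak in replicate 2 lay below the background. Dst had 2 of 7 and 10 of 15 (66.7%, 41.7 to 84.8).

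Where both strands were called, their heights were close. The antisense peak held a median of 51.7% of the tags of such bins in Macf1 and 51.4% in Dst in replicate 2, close to the 51.1% over all genic pairs. In Ahnak the median was 47.3% over 4 pairs in replicate 1 and 53.7% over 9 pairs in replicate 2, with a range of 43.9% to 70.7% in the latter. A pair enters this count only where both peaks passed the caller, which draws the share toward equality.

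**Figure D5:**
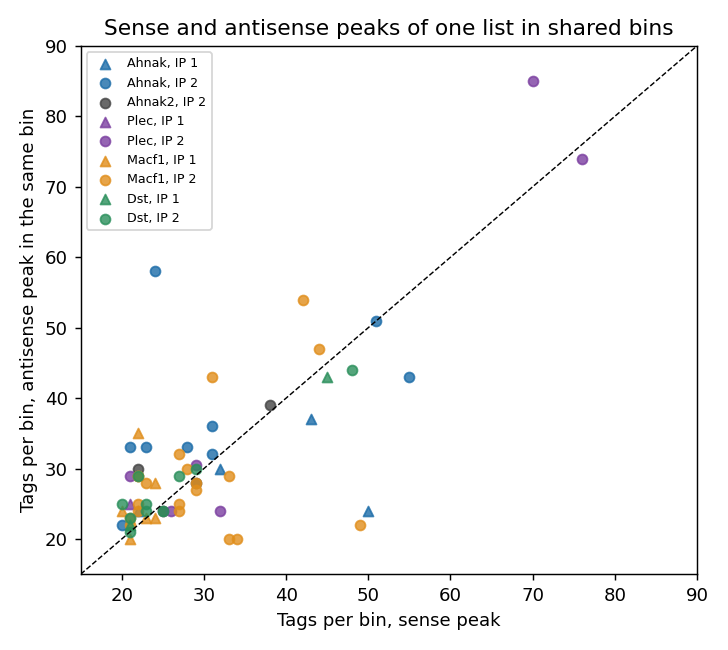
Tags per bin of sense peaks (x) and of the antisense peaks that the same list calls in that bin (y), by gene (colour) and IP replicate (triangle 1, circle 2); the dashed line marks equal values. The Dst points lie close to the line, and an Ahnak bin of 24 sense and 58 antisense tags lies farthest above it.

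Bins called on both strands in both lists were few. Ahnak had 2 of its 38 occupied bins in that state, Plec 1 of 43, Macf1 3 of 32, Dst 1 of 28 and Ahnak2 0 of 15. The Ahnak bins, at 205898650 and 205909600, were wholly coding, as was the Plec bin at 107891700 and the Macf1 bin at 135643100. In that Macf1 bin the 4 values were 23 sense and 23 antisense tags in replicate 1 and 29 and 27 in replicate 2. The other Macf1 bins, at 135640150 and 135655900, and the Dst bin at 36422100 spanned boundaries. Bins called in 1 list and on 1 strand numbered 24 of 38 in Ahnak, 36 of 43 in Plec, 11 of 15 in Ahnak2 and 15 of 28 in Dst, but 7 of 32 in Macf1.

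Peak heights of the genes overlapped throughout. Median tags of sense peaks were 27 in Ahnak, 25 in Plec, 22 in Macf1 and 23 in Dst in replicate 1, and 26, 32, 27 and 23 in replicate 2. The highest sense peaks in replicate 1 were 50, 32, 24 and 45 tags in that order, and in replicate 2 82, 76, 49 and 48. Tags are not scaled for depth, so a difference in tags between the lists can hold a difference in depth.

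A gene with the same composition as Ahnak was Nes, which encodes the intermediate filament protein nestin. Likeness was taken as at least 5 sense peaks over both lists with at most 10% of them at a boundary, and 18 of 303 genes met it, all with no boundary peak. The 5 after Ahnak with most sense peaks, with ties ordered by the number of all peaks, were LOC120097382 (15), Huwe1 (14), LOC120093067 (14), Ccdc9b (10) and Nes (10). In 16 of the 18 genes no sense peak held any coding sequence. In Huwe1, 13 of 14 sense peaks joined another exon class to intron. Ahnak and Nes were the only genes of the 303 whose sense peaks were all wholly coding. Nes shared none of its 6 replicate 1 peaks with the 11 of replicate 2.

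Other cytoskeletal linker genes, among them spectrin, filamin, actinin, talin and vinculin genes, had boundary peaks in the main. Of 29 such genes listed, 13 had a peak, 9 in replicate 1 and 12 in replicate 2 (922 and 1819 of all 1914 genes with a peak). Of these 13, 8 had a peak in both lists, where 43.2% of all genes with a peak did, and 7 a shared peak. The share of all annotated genes with a peak or a shared peak was not computed, for this list or those below. The counts of genes with a peak therefore cannot show whether there was an excess. Boundary peaks were 84 of the 106 sense peaks of these 13 genes (79.2%, 70.6 to 85.9). Over both lists, 67.1% of all genic sense peaks were boundary peaks, which is below that interval. The median of the shares of single genes was 80% over the 303 genes with at least 5 sense peaks. That median is not the same measure as the pooled share of the linker genes. The actin crosslinker gene Flna had 17 boundary peaks of 22 sense peaks, the spectrin genes Sptbn1 16 of 20 and Sptan1 17 of 17, and Actn1, which encodes an alpha-actinin, 13 of 15. Vcl, the vinculin gene, had 7 of 10, and Flnc, Tln1 and Actn4 had 3 each of 6, 6 and 5. Flna, with 47 peaks, and Lrp1, with 49, were among the genes nearest to Plec in number of peaks, and 77.3% and 81.8% of their sense peaks were at boundaries, against 20.8% in Plec.

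Among 24 genes of binding partners, 12 had a peak, 6 of these 12 in both lists (43.2% of all genes with a peak) and 1 a shared peak. Boundary peaks were 14 of their 31 sense peaks (45.2%, 29.2 to 62.2), where 67.1% of all genic sense peaks over both lists were. Of the remaining 17, 10 were in Nes. Besides Nes, those in both lists were Dysf, Tubb5, Clip1, Krt8 and Lmna. Clip1, which encodes a microtubule plus-end protein, was the gene with shared peaks, 2 of 5 in replicate 1.

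Genes listed for a long coding exon did not all look like Ahnak. Of 20, 11 had a peak, 7 of these 11 in both lists (43.2% of all genes with a peak). Boundary peaks were 40 of their 71 sense peaks (56.3%, 44.8 to 67.3), against 67.1% of all genic sense peaks over both lists. Those 71 include the 10 sense peaks of Nes, which is on this list too, and all 10 were wholly coding. The share without Nes was not computed. Srrm2, which encodes a spliceosome-associated speckle protein, had 9 of 18 at boundaries and 7 wholly coding, and Son, another speckle protein gene, 5 of 7 at boundaries. Prrc2b had 11 of 14, the histone methyltransferase gene Kmt2d 8 of 10, Zfhx3 2 of 2 and Tnks1bp1 1 of 3.

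Peak lists do not measure expression, so cell identity was checked only by which marker genes had a peak. Of 14 muscle and cardiac markers, Tnnt2 and Tpm1 had peaks in both lists and Vim and Mef2c in replicate 2; the other 10, Des, Actc1 and Myog among them, had none. Endothelial, immune and neuronal markers had no peak, and of 4 epithelial markers Krt8 did.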

How the data were processed

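Per the submitters' processing notes, HISAT2 and the rat build mRatBN7.2 were used. Not given in the sources used here are the peak caller and its filters, any use of the inputs, and the placing of reads that match repeated sequence. The deposited lists, matched to the IP samples by name, hold positions and strands with tags, a p-value and an annotation per peak. Tags are a signal that the authors did not scale for depth: whole numbers in 51-nt peaks and a mean over 50-nt bins in longer ones, from the values. The deposited p-value was used for an alternative threshold alone.

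Peaks were assigned by the deposited gene name, and all 5 symbols stood in the RefSeq name table (GRCr8, names alone). Peaks overlapped when they shared at least 1 bin. The members, gene lists and alternatives were chosen with earlier results of these data known. All members are named with their strongest sense, antisense and shared peaks; other genes are named where a list gene has a peak in both lists, or by likeness as stated. A gene that this rule names is left out. Statements on other single bins were chosen after their values were seen. Overlap and classes were tested on simulated peaks. Software was Python 3.11.15 with pandas 2.3.3, numpy 2.4.6, matplotlib 3.10.9 and, for intervals, scipy 1.17.1. No sequence is printed, since genome sequence was not used here.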

Additional observations from a re-analysis of the deposited data

How the results depend on the processing

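The boundary share of Ahnak was 0% under every alternative run, as it had to be with no intron sequence in any of its sense peaks. That of Plec, Macf1 and Dst was 57.3% and lay between 52.2% and 60.6% except where each class had to cover at least 0.1 of the peak (44%). Recurrence of replicate 1 peaks, 42.1% in Ahnak and 42.9% in the plakins, was 35.7% and 31.8% with the better part of each list by p-value and 47.4% and 55.1% on either strand; counted over replicate 2 peaks it was 22.2% and 18.9%. Median sense tags over both lists, 26.8 in Ahnak and 24 in the plakins, were 32 and 30.5 with the better part of each list, where low peaks are removed by construction, and the Ahnak median over both orientations was 28. Leaving out each replicate gave 26 to 27 in Ahnak and 23 to 27 in the plakins. The number of peaks, 55 and 160, was 34 and 75 with the better part of each list, and leaving out each replicate gave 19 to 36 and 49 to 111. Sense shares moved by less than their intervals. No paired analysis was possible because the results come from descriptions of 2 IP lists and no input list was analysed. Unknown depth and few sense peaks per gene limit the precision of all shares.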
